A study of Mus musculus with 18 samples.

Results

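The control alveolar macrophages of 2 mouse crosses were compared gene by gene, with no library labelled as a knockout on either side. By their labels, Vhl-Hif1 controls carry conditional (floxed) alleles of Vhl and Hif1a, and Vhl-Hif2 controls carry conditional alleles of Vhl and Hif2a, the gene whose symbol is Epas1. The floxed Vhl allele is therefore common to both groups, and the floxed allele of 1 HIF alpha subunit differs between them. Each group held 3 libraries, which makes 6 of the 18 libraries of the study. The members of the comparison were all autosomal genes that passed a filter on low counts, 12471 of the 32789 genes in the table, and no measured difference was used to choose them. The other libraries were the knockouts of each cross, in which the labels name CD11c-Cre (a recombinase driven by the promoter of Itgax, active in alveolar macrophages and in other CD11c-positive cells), and the controls and knockouts of a triple cross that carries the floxed alleles of all 3 genes. Each of these 4 groups also held 3 libraries. The labels give no strain, age or sex, do not say whether controls lacked Cre or were littermates, and do not say whether each library came from 1 animal. The p-values below therefore measure the spread between libraries, which may be technical.

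Alveolar macrophages live in the airspaces of the lung, where they clear particles and surfactant lipid. VHL is the part of a ubiquitin ligase that marks HIF-1 alpha and HIF-2 alpha for degradation when oxygen is present, so in a control cell both subunits are kept low. Conditional alleles are usually built in embryonic stem cells of 1 inbred strain, and DNA next to such an allele tends to be inherited with it when mice are crossed to another strain. Genes near Hif1a on chromosome 12, Epas1 on chromosome 17 and Vhl on chromosome 6 were therefore counted separately. The files hold no genotypes, so which strain's DNA a cross carries at any position was not analysed here.

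The 6 control libraries held 19230452 to 25794082 counts. Levels are given as CPM, counts scaled to a common library size after TMM correction, with the SD over 3 libraries, and differences as log2 fold changes of Vhl-Hif2 controls over Vhl-Hif1 controls, with their SE, from edgeR's quasi-likelihood test. A gene was called when its p, adjusted by Benjamini-Hochberg over 12900 tested genes, was under 0.05. The summed level of 20 alveolar macrophage markers was 38537 to 39958 CPM in the Vhl-Hif1 controls and 37150 to 39797 CPM in the Vhl-Hif2 controls, and the defining marker Siglecf lay between 525 and 627 CPM in all 6 libraries. T and NK cell markers summed to at most 1.07 CPM. B cell markers summed to 0.424 to 0.675 CPM in the Vhl-Hif1 controls and to 0.836 to 1.28 CPM in the Vhl-Hif2 controls, with Pax5 at 0 in all 6. Neutrophil markers summed to 149 to 165 and 122 to 193 CPM, mostly Csf3r and Mmp8, with Ly6g, Elane and Mpo at 0 in all 6. Dendritic cell markers summed to 172 to 181 and 174 to 203 CPM, mostly Irf8, and endothelium and fibroblast markers to 134 to 168 and 121 to 146 CPM, mostly Vwf. The collagen genes Col1a1, Col3a1 and Col1a2 were at 7.44, 7.09 and 5.37 CPM in Vhl-Hif1 control 2 and at most 1.003 CPM in the other 5 libraries. The part of these cell types in the differences below was not tested. Both groups had the expression of female cells: Xist was at 313 to 458 CPM and 334 to 705 CPM, and no library held more than 0.132 CPM of any of 4 Y-linked genes. In bulk libraries fewer cells of a type and less RNA per cell cannot be told apart.

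Between the controls of the 2 crosses, 43 of 12471 autosomal genes passed the test. Of these, 31 were higher and 12 lower in the Vhl-Hif2 controls, and 29 differed by at least 2-fold. The called genes were 0.345% of the autosomal genes tested (0.249% higher and 0.0962% lower), while 684 (5.48%) had an unadjusted p under 0.05. None of the 43 had overlapping libraries, against a non-overlapping share of 13.1% over all autosomal genes tested. The count rested on every library: it was 28, 18 and 21 without Vhl-Hif1 control 1, 2 and 3, and 28, 31 and 26 without Vhl-Hif2 control 1, 2 and 3. DESeq2 called 85 genes (0.682%), which included 42 of the 43. When each of the 6 libraries was left out in turn, 16 of the 43 genes kept their call every time and 27 lost it at least once, while none of the 43 changed sign.

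The called genes were unevenly spread over the chromosomes. Chromosome 12 had 9 called of 459 tested (1.96%), chromosome 3 had 10 of 594 (1.68%), chromosome 7 had 9 of 1033 (0.871%) and chromosome 17 had 3 of 697 (0.430%). Over all autosomal genes tested the share was 0.345%, and that of chromosome 17 was close to it. These 4 chromosomes together held 31 called genes of 2783 tested (1.11%), against 12 of 9688 (0.124%) on the other 15 autosomes, a grouping made after the counts were seen. The 9 called genes of chromosome 12 were all higher in the Vhl-Hif2 controls.

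**Figure D1:**
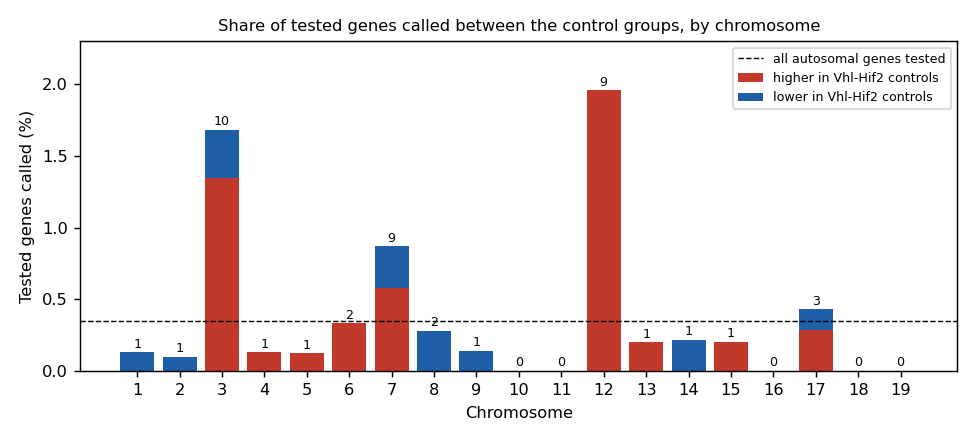
Share of tested genes called between the control groups (%, y axis) on each autosome (x axis), split into genes higher (red) and lower (blue) in the Vhl-Hif2 controls, with the number called above each bar. Chromosomes 12 and 3, at 1.96% and 1.68%, stand above the dashed line at 0.345% for all autosomal genes tested.

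Around Hif1a itself, 4 of 118 tested genes that start within 10 Mb were called (3.39%, against 0.345% over all autosomal genes tested). All 4 were higher in the Vhl-Hif2 controls. The Hif1a gene lies on chromosome 12 at 73901375 to 73947530 (GRCm38, plus strand). The largest difference there was that of Arg2, the mitochondrial arginase that turns arginine into ornithine and urea (79130777 to 79156301, 5.23 Mb from the start of Hif1a). Arg2 was at 2.36, 2.20 and 2.51 CPM in the Vhl-Hif1 controls 1, 2 and 3 and at 32.7, 18.8 and 43.5 CPM in the Vhl-Hif2 controls. Every Vhl-Hif2 control was thus above every Vhl-Hif1 control, and the mean rose 13.4-fold (log2 fold change 3.74 ± 0.34, edgeR adjusted p = 1.4e-05).

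Dhrs7, a short-chain dehydrogenase/reductase of the endoplasmic reticulum, starts 1.25 Mb on the other side of Hif1a (72650353 to 72664909). It was at 48.5, 42.0 and 46.5 CPM in the Vhl-Hif1 controls and at 124, 78.6 and 122 CPM in the Vhl-Hif2 controls, a log2 difference of 1.24 ± 0.16 (edgeR adjusted p = 9.5e-04). Mpp5, the polarity scaffold also known as PALS1, was at 17.5, 20.7 and 21.7 CPM against 46.2, 33.3 and 46.4 CPM (1.07 ± 0.20, edgeR adjusted p = 0.027). Sipa1l1, a GTPase-activating protein for Rap, was at 32.2, 31.2 and 32.0 CPM against 45.5, 44.3 and 57.2 CPM (0.62 ± 0.11, edgeR adjusted p = 0.022). For all 3 genes the groups did not overlap. For Arg2, Dhrs7 and Mpp5, Vhl-Hif2 control 2 was the lowest of its group. The calls of Arg2 and Dhrs7 held without each library in turn. The call of Mpp5 ended without Vhl-Hif1 control 1, 2 or 3 or Vhl-Hif2 control 1 or 3, at log2 values of 0.98 to 1.21 and edgeR adjusted p values up to 0.157. That of Sipa1l1 ended without Vhl-Hif1 control 1, 2 or 3 or Vhl-Hif2 control 3, at 0.49 to 0.69 and up to 0.158. The window count was 2 without any 1 of Vhl-Hif1 control 1, 2 or 3 or without Vhl-Hif2 control 3, and 7 by DESeq2.

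Hif1a itself and the genes next to Arg2 were not called. The median log2 fold change of the 118 genes was 0.02, and 17 of them had an unadjusted p under 0.05 (14.4%, against 5.48% over all autosomal genes). Hif1a was at 230, 225 and 232 CPM in the Vhl-Hif1 controls and at 242, 179 and 231 CPM in the Vhl-Hif2 controls. Those ranges overlapped, and the difference was -0.08 ± 0.18 (edgeR adjusted p = 0.9996, two-sided exact permutation p = 0.9, where 0.1 is the smallest that 3 libraries against 3 allow). Plekhh1, which starts 5.13 Mb from Hif1a, had a log2 fold change of 2.26 ± 0.65 at a mean of 0.245 ± 0.0983 against 1.22 ± 0.792 CPM and was not called (edgeR adjusted p = 0.35).

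A second group of called genes lay farther out on chromosome 12, 25.8 to 30.9 Mb from the start of Hif1a, and it held the called gene with the largest log2 fold change between the controls, Clmn. Clmn encodes calmin, a membrane-anchored protein with calponin-homology domains that bind actin. It was at 0.211, 0.308 and 0.656 CPM in the Vhl-Hif1 controls (5, 7 and 17 counts) and at 179, 224 and 188 CPM in the Vhl-Hif2 controls (3503, 5797 and 4050 counts). The transcript was thus close to undetected in one cross and well expressed in the other. The means differed 503-fold (log2 fold change 8.93 ± 0.31, edgeR adjusted p = 1.5e-11), and the log2 value stayed between 8.63 and 9.55 without each library.

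Because Clmn (chromosome 12, 104763117 to 104865076) and Epcam (chromosome 17, 87635979 to 87651129) showed large differences in steady-state RNA, their reference promoters are shown, from 250 bases before to 50 bases after the gene start, on the coding strand. They come from RefSeq on GRCm38.p6 and are sequences of the reference strain, not of these mice. The difference of Epcam, at a log2 fold change of 2.39, was not the next largest after Clmn. Prkce, Arg2 and Tc2n differed more, at 4.32, 3.74 and 2.74. The promoter set used here held no entry for Prkce and Arg2, and the promoter of Tc2n is not shown. Capitals mark a match to the core of the HIF-binding motif, ACGTG or GCGTG, on either strand; the 2 marked matches in Epcam are ACGTG on both strands of 1 palindrome and overlap.
Clmn (chr12:104865027-104865326, minus strand): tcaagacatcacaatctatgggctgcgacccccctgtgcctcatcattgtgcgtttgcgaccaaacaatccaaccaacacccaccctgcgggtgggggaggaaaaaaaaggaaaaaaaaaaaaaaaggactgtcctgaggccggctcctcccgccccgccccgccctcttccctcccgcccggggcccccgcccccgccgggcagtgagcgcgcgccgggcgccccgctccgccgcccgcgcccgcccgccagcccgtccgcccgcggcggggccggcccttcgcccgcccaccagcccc
Epcam (chr17:87635729-87636028, plus strand): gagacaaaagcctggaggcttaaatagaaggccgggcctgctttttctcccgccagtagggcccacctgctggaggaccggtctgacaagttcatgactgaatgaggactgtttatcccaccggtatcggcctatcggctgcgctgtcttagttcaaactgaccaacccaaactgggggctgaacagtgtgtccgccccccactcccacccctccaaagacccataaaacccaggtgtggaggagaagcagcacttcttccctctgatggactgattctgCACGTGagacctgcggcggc
The Epcam match starts 30 bases after the gene start, and these letters are not in the Clmn window. Of 32851 RefSeq promoters of this length, 43.8% hold at least 1 of these motifs, so a match is common.

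Tc2n, a protein with tandem C2 domains, was at 15.2, 10.6 and 8.25 CPM in the Vhl-Hif1 controls and at 65.3, 76.4 and 85.1 CPM in the Vhl-Hif2 controls. Its level was 6.66-fold higher in the latter (log2 fold change 2.74 ± 0.37, edgeR adjusted p = 0.0010), and its call held without each library. Efcab11, an EF-hand protein, had a mean of 0.691 ± 0.0976 CPM against 2.64 ± 0.188 CPM (1.93 ± 0.40, edgeR adjusted p = 0.048). The other called genes of the group lay outside the rule for naming and were chosen after their values were seen. Ccdc88c, a regulator of Wnt signalling also called DAPLE, was at 31.0 ± 3.78 CPM against 72.7 ± 4.56 CPM, and Dglucy, a mitochondrial D-glutamate cyclase, at 22.5 ± 1.46 CPM against 35.0 ± 4.72 CPM. The calls of Efcab11 and Ccdc88c ended without any 1 of the 6 libraries, with edgeR adjusted p values up to 0.291 and 0.242. The call of Dglucy ended without any library but Vhl-Hif2 control 1, with values up to 0.199.

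**Figure D2:**
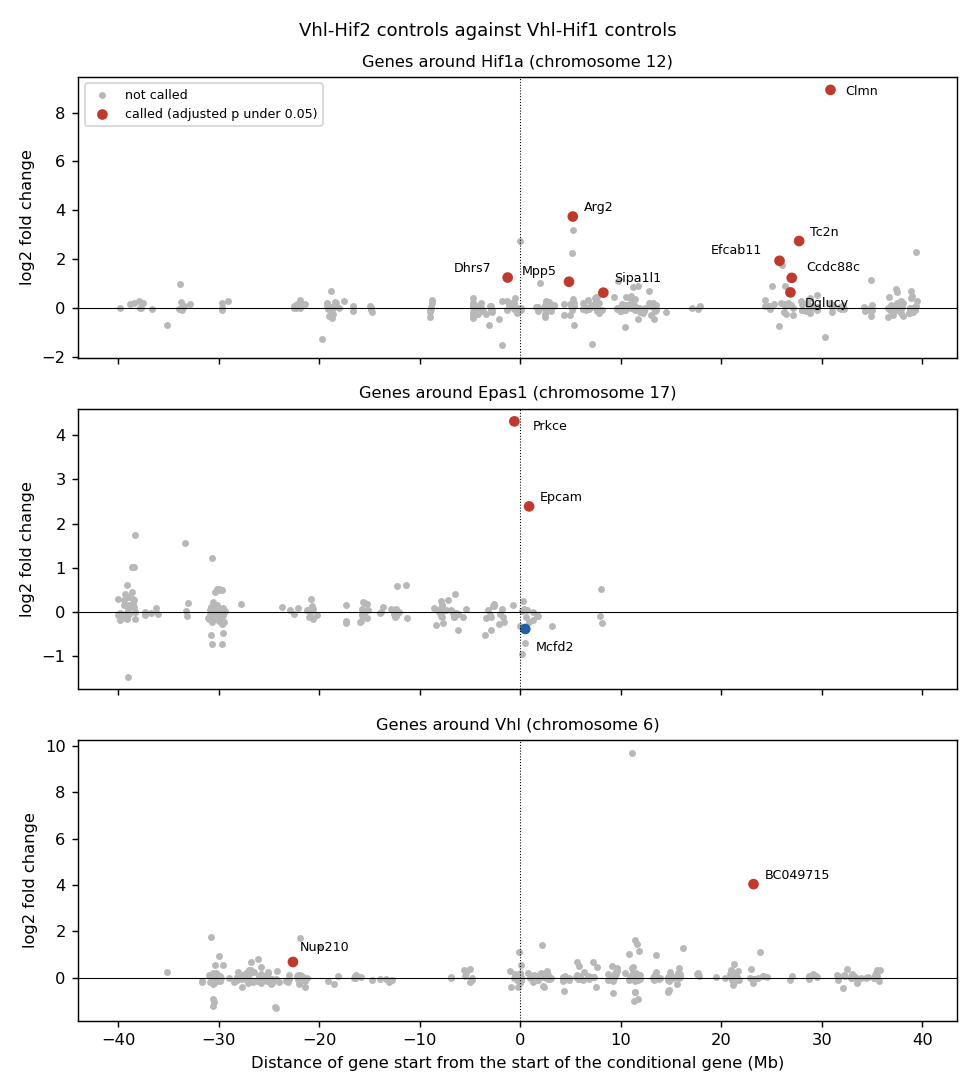
Log2 fold change of Vhl-Hif2 over Vhl-Hif1 controls (y axis) for each tested gene against the distance of its start from that of Hif1a, Epas1 or Vhl (x axis, Mb); called genes are coloured red where higher and blue where lower. Arg2 and Clmn stand out at 3.74 and 8.93 around Hif1a, Prkce and Epcam at 4.32 and 2.39 beside Epas1, and the grey point at 9.69 in the Vhl panel is a predicted gene that was not called (adjusted p = 0.71).

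Beside Epas1 the called genes were few and close. Epas1 lies on chromosome 17 at 86753700 to 86833410 (plus strand). Of the 62 tested genes within 10 Mb, 3 were called (4.84%, against 0.345% over all autosomal genes tested). An unadjusted p under 0.05 was found for 5 of the 62 (8.06%, against 5.48%). Prkce, which encodes protein kinase C epsilon, a kinase activated by diacylglycerol, starts 0.586 Mb before Epas1 (86167785 to 86657919). It was at 1.43, 1.81 and 2.16 CPM in the Vhl-Hif1 controls and at 27.6, 41.1 and 39.5 CPM in the Vhl-Hif2 controls. The groups were far apart, with means that differed 20.04-fold (log2 fold change 4.32 ± 0.22, edgeR adjusted p = 5.4e-09). Epcam, an epithelial cell adhesion molecule, starts 0.882 Mb after the start of Epas1. Its level was 66.8, 67.3 and 64.1 CPM in the Vhl-Hif1 controls and 254, 393 and 391 CPM in the Vhl-Hif2 controls, which is 5.24-fold higher (2.39 ± 0.17, edgeR adjusted p = 6.0e-07). Prkce and Epcam kept their calls without each library.

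Between them lies Mcfd2, a partner of the cargo receptor LMAN1 in export from the endoplasmic reticulum, which was slightly lower. It was at 76.5, 72.9 and 69.2 CPM in the Vhl-Hif1 controls and at 53.1, 55.1 and 58.6 CPM in the Vhl-Hif2 controls (-0.39 ± 0.07, edgeR adjusted p = 0.022). The call of Mcfd2 ended without Vhl-Hif1 control 1 or 2 or Vhl-Hif2 control 1 or 2, at edgeR adjusted p values up to 0.129. Epas1 was at 35.9, 33.2 and 35.1 CPM against 35.1, 23.2 and 24.7 CPM. Those ranges overlapped, and the difference did not pass the test (-0.33 ± 0.19, edgeR adjusted p = 0.97, two-sided exact permutation p = 0.2).

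Epcam is also a marker of lung epithelium, so the other epithelial markers are given beside it. Summed over 13 markers other than Epcam, the level was 116 to 148 CPM in the Vhl-Hif1 controls and 139 to 171 CPM in the Vhl-Hif2 controls. Most of that sum was Cdh1, at 108 to 133 and 122 to 155 CPM. The surfactant protein gene Sftpc of alveolar type 2 cells was at or below 0.591 CPM in all 6 libraries, and Krt8 was at or below 0.232 CPM. Other members of the list were detected at low levels. Scgb1a1 was at 6.03, 3.52 and 1.27 CPM in the Vhl-Hif1 controls and at 1.28, 7.56 and 8.18 CPM in the Vhl-Hif2 controls. Scgb3a2 was at 1.77, 0.881 and 0.0771 CPM against 0.0511, 2.01 and 1.58 CPM. The part of epithelial cells in the Epcam difference was not tested. Of the 10 tested epithelial markers, Epcam was the one called.

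Around Vhl, which both crosses carry as a floxed allele, edgeR called 0 of 101 tested genes within 10 Mb, as did DESeq2. Of the 101 genes, 10 had an unadjusted p under 0.05 (9.90%, against 5.48% over all autosomal genes). Vhl itself was at 18.7, 18.9 and 13.2 CPM in the Vhl-Hif1 controls and at 17.5, 20.1 and 18.6 CPM in the Vhl-Hif2 controls. The groups overlapped and the difference was 0.15 ± 0.14 (edgeR adjusted p = 0.9996, two-sided exact permutation p = 0.7); it was -0.00185 without Vhl-Hif1 control 3.

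Another group of called genes lay at the start of chromosome 3, at 7569994 to 20122084, away from any targeted gene. Called genes were joined into a group here where neighbours lay within 10 Mb and at least 3 were called, a rule set after the positions were seen. Each such stretch, here and on chromosome 7, runs from the first to the last called gene. Its share of called genes is therefore high by construction and cannot be set against the 0.345% over all autosomal genes tested. In this stretch 9 of 34 tested genes were called (26.5%), 7 higher and 2 lower in the Vhl-Hif2 controls. Fabp4 and Fabp5 are neighbouring fatty acid-binding proteins that carry lipid inside the cell, and Fabp4 is also a marker of alveolar macrophages. Fabp4 was at 50.7, 36.7 and 36.4 CPM in the Vhl-Hif1 controls and at 173, 120 and 103 CPM in the Vhl-Hif2 controls. The groups did not overlap, and the mean was 3.19-fold higher in the Vhl-Hif2 controls (1.68 ± 0.16, edgeR adjusted p = 1.7e-05). Fabp5 was at 210, 197 and 181 CPM against 446, 330 and 305 CPM (0.88 ± 0.14, edgeR adjusted p = 0.0075). Without Vhl-Hif1 control 2 or 3 the call of Fabp5 ended, at edgeR adjusted p values up to 0.061, while that of Fabp4 held throughout.

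The cytosolic carbonic anhydrase gene Car13 was at 2.83 ± 0.334 CPM against 7.05 ± 1.35 CPM (1.31 ± 0.25, edgeR adjusted p = 0.026), and the zinc finger gene Zbtb10 was lower, at 16.6 ± 2.06 CPM against 10.2 ± 0.587 CPM (-0.70 ± 0.13, edgeR adjusted p = 0.028). Car13 lost its call without any 1 library but Vhl-Hif2 control 2 (edgeR adjusted p up to 0.139), and Zbtb10 without any but Vhl-Hif1 control 3 (up to 0.196). The next 4 genes were called as well and were named after their values were seen. Sirpb1a and Sirpb1c, receptors of the signal-regulatory protein family on myeloid cells, were at 21.1 ± 1.2 against 37.1 ± 4.12 CPM and at 177 ± 7.06 against 267 ± 13.1 CPM. Gyg, the glycogenin that primes glycogen synthesis, was at 105 ± 4.27 against 173 ± 42.1 CPM. Il7, the cytokine interleukin 7, had 1, 0 and 3 counts against 17, 21 and 22 counts. The remaining gene of the stretch was a predicted model, lower in the Vhl-Hif2 controls. The Sirpb1 genes and that model belong to a family of similar sequences, so reads may be split among them. The calls of Sirpb1c and Il7 ended without any 1 library, that of Gyg without any but Vhl-Hif2 control 2, and that of Sirpb1a without Vhl-Hif1 control 2 or 3, at edgeR adjusted p values up to 0.236, 0.291, 0.192 and 0.056.

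Chromosome 7 held 2 groups. Near its start, at 3816781 to 4940512, 5 of 32 tested genes were called and all were higher in the Vhl-Hif2 controls. Of these, Pira2 and Lilra6 encode receptors of the paired immunoglobulin-like family of myeloid cells, 2 were predicted models of the same region, and the fifth was Sbk2, an SH3-binding-domain kinase. Pira2 was at 152, 154 and 144 CPM against 291, 252 and 288 CPM (0.89 ± 0.10, edgeR adjusted p = 1.1e-04), and Lilra6 at 23.8 ± 0.688 against 48.4 ± 5.71 CPM. Both were named after their values were seen, and since the family consists of near-identical copies, the counts of single members are uncertain. Sbk2 was at 4.90 ± 0.369 against 11.7 ± 2.63 CPM (1.25 ± 0.21, edgeR adjusted p = 0.010). The call of Sbk2 ended without Vhl-Hif1 control 2 or 3 or Vhl-Hif2 control 1 or 3, at up to 0.095, and those of Pira2 and Lilra6 held.

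The other group on chromosome 7, at 16234585 to 19696109, was lower in the Vhl-Hif2 controls for 3 of its 56 tested genes. Apoe encodes apolipoprotein E, which carries cholesterol out of macrophages, and it is also on the list of monocyte and interstitial macrophage markers. It was at 110, 87.2 and 92.6 CPM in the Vhl-Hif1 controls and at 37.4, 33.0 and 32.5 CPM in the Vhl-Hif2 controls. The Vhl-Hif1 controls were 2.82-fold higher (log2 fold change -1.49 ± 0.22, edgeR adjusted p = 0.0029), and the call held without each library. Its neighbour Apoc1, another apolipoprotein, was at 4.88 ± 0.910 against 2.18 ± 0.268 CPM (-1.16 ± 0.24, edgeR adjusted p = 0.044). C5ar2, a second receptor for the complement fragment C5a, was at 39.9, 39.1 and 39.5 CPM against 25.0, 28.1 and 22.7 CPM (-0.64 ± 0.11, edgeR adjusted p = 0.0090). The call of Apoc1 ended without any 1 library (up to 0.272) and that of C5ar2 without Vhl-Hif2 control 3 (0.061). The 17 monocyte and interstitial macrophage markers summed to 1287 to 1467 CPM in the Vhl-Hif1 controls. In the Vhl-Hif2 controls the sum was 1037 to 1588 CPM. Most of it was Fn1, at 725 to 932 and 598 to 1103 CPM. Over the 6 libraries Csf1r was at 305 to 354 CPM, Cd14 at 57.9 to 89.4 CPM and Ccr2 at 8.18 to 14.3 CPM. Ly6c2 and Cx3cr1 were low, at or below 0.102 and 1.04 CPM. The part of monocytes and interstitial macrophages in the Apoe difference was not tested.

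The remaining 14 called genes lay apart from each other, 8 higher and 6 lower in the Vhl-Hif2 controls. Rgl1, a guanine nucleotide exchange factor for the GTPase Ral on chromosome 1 (152516760 to 152766351), was at 141, 137 and 134 CPM in the Vhl-Hif1 controls and at 60.5, 54.7 and 66.1 CPM in the Vhl-Hif2 controls. The libraries were tightly grouped and did not overlap, and the Vhl-Hif1 controls were 2.28-fold higher (-1.19 ± 0.08, edgeR adjusted p = 1.8e-07), with a call that held without each library. Dclk3, a doublecortin-like kinase on chromosome 9, was at 8.86, 8.77 and 9.45 CPM against 1.12, 2.28 and 1.35 CPM (-2.49 ± 0.37, edgeR adjusted p = 0.0035). Ndrg1, a gene induced by hypoxia, was at 2.24, 1.67 and 3.12 CPM against 4.80, 5.98 and 8.18 CPM (1.42 ± 0.21, edgeR adjusted p = 0.0039). Leaving out 1 library ended neither of these 2 calls. That of Dclk3 ended without both Vhl-Hif1 control 3 and Vhl-Hif2 control 1 (0.091), and that of Ndrg1 in a fit of the 6 control libraries alone (0.18).

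Lime1, an adaptor of Src-family kinases, was at 11.1 ± 1.33 against 6.62 ± 0.717 CPM (-0.75 ± 0.13, edgeR adjusted p = 0.014). Lrmda, a leucine-rich repeat protein of melanocyte differentiation, was at 10.1 ± 0.872 against 4.17 ± 2.05 CPM (-1.28 ± 0.26, edgeR adjusted p = 0.044), and Unc13a, a priming factor for vesicle release, at 17.03 ± 1.499 against 11.8 ± 0.798 CPM (-0.53 ± 0.10, edgeR adjusted p = 0.040). Bend4, a BEN-domain protein, was higher, at 1.89 ± 0.517 against 5.82 ± 1.98 CPM (1.62 ± 0.32, edgeR adjusted p = 0.036). Each of these 4 lost its call without single libraries: Lime1 without Vhl-Hif1 control 1 or 2 or Vhl-Hif2 control 1 or 3 (up to 0.118), Lrmda without any but Vhl-Hif2 control 1 (up to 0.192), Bend4 without any but Vhl-Hif2 control 3 (up to 0.236) and Unc13a without any 1 (up to 0.227). Rab4a, a GTPase of endosome recycling named after its values were seen, had 9, 8 and 15 counts in the Vhl-Hif1 controls and 0 counts in all 3 Vhl-Hif2 controls (edgeR adjusted p = 0.044, up to 0.169 without any 1 library). The other 6 genes outside the naming rule were Slc16a1, a lactate transporter, the integrin alpha subunit gene Itgad, Svep1, Nup210, Mast4 and BC049715, all higher in the Vhl-Hif2 controls. Single libraries ended each of these calls too: 5 of the 6 libraries for Slc16a1, Itgad, Svep1 and Nup210, any 1 of the 6 for BC049715 and 3 for Mast4, at edgeR adjusted p values up to 0.164, 0.140, 0.136, 0.268, 0.277 and 0.125 for these genes in turn.

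**Figure D3:**
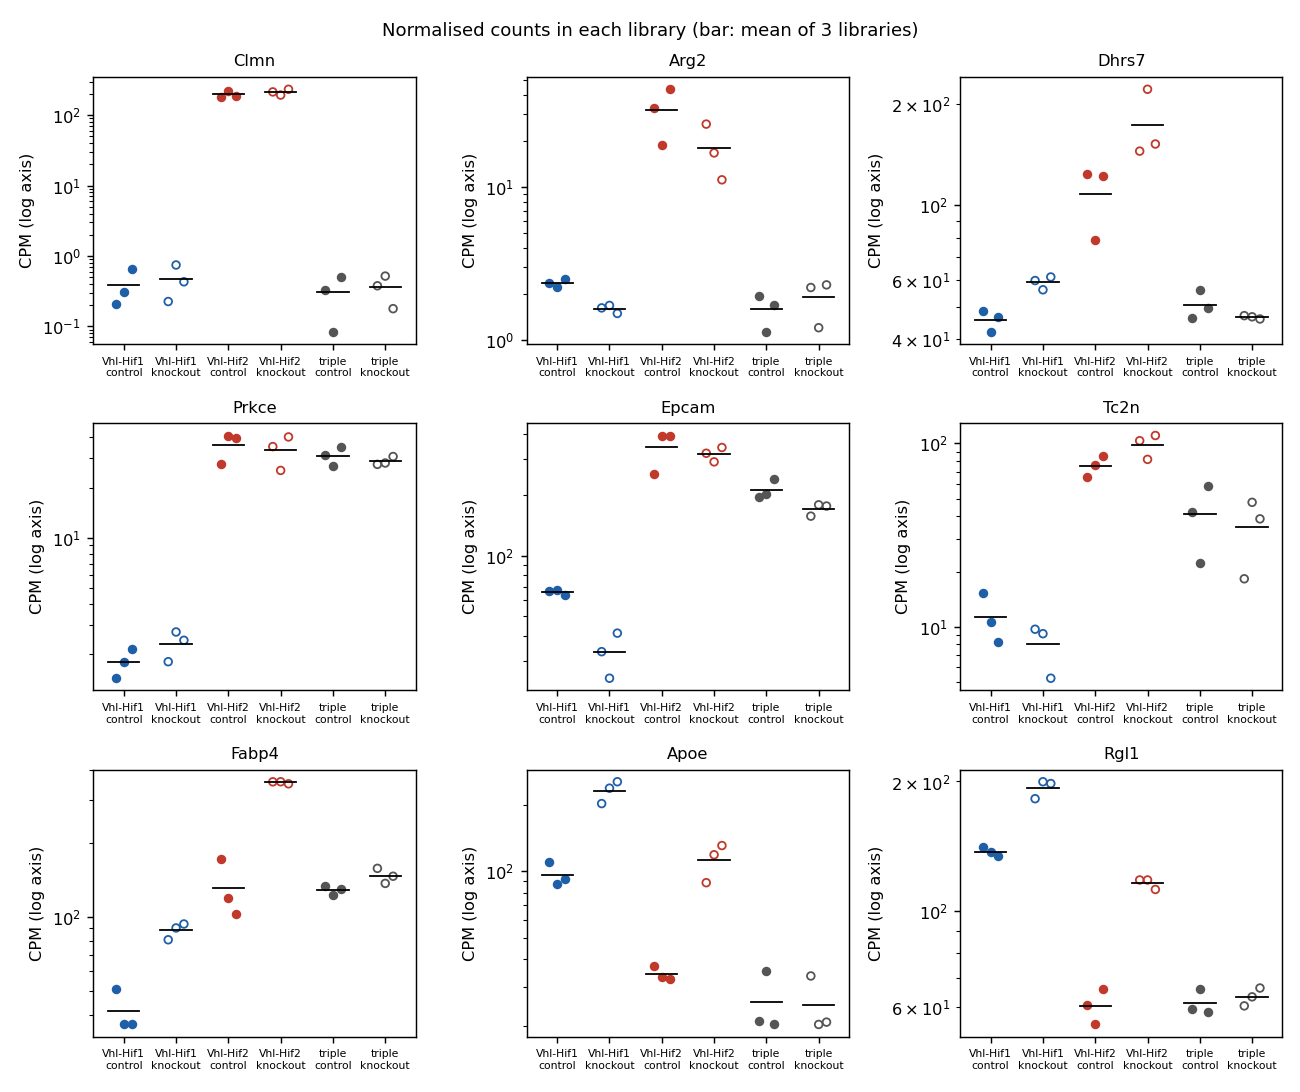
Level in CPM (log axis) of 9 genes in each of the 18 libraries, by group (x axis); filled points are controls, open points knockouts, and the bar is the mean of 3 libraries. Clmn sits near 0.392 CPM in Vhl-Hif1 controls and 197 CPM in Vhl-Hif2 controls, and its level in the knockouts of each cross lies close to that of their controls.

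The knockouts of the same crosses gave the same comparison in 6 libraries that the controls did not use. The targeted genes were checked first. Vhl was at 2.93, 3.09 and 2.62 CPM in the Vhl-Hif1 knockouts and at 1.92, 2.48 and 2.36 CPM in the Vhl-Hif2 knockouts, below every control. Hif1a was at 206, 209 and 166 CPM in the Vhl-Hif1 knockouts and at 58.7, 78.6 and 61.6 CPM in the Vhl-Hif2 knockouts, and Epas1 was at 36.8, 60.4 and 46.5 CPM and 48.0, 56.1 and 58.6 CPM. The lower Hif1a level thus lay in the libraries labelled Vhl-Hif2 knockout, against their own controls at -1.71 ± 0.18 (edgeR adjusted p = 4.3e-06), while the Vhl-Hif1 knockouts differed from theirs by -0.24 ± 0.18 (edgeR adjusted p = 0.66). Gene counts cover exons outside a deleted part and do not check the deletions of Hif1a and Epas1, so all libraries are named by their labels throughout. This bears on the controls as well: which of them carry the floxed Hif1a allele and which the floxed Epas1 allele rests on the labels alone, and the lower Hif1a RNA lay in knockouts of the cross that the labels give no floxed Hif1a allele.

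Between the libraries labelled Vhl-Hif2 knockout and Vhl-Hif1 knockout, edgeR called 1117 autosomal genes (8.96%), a comparison that also holds the difference between the 2 knockouts. Of the 43 genes called between the controls, 36 were called there with the same sign, which is 83.7% of the controls' list and 3.22% of the knockouts' list, and 0 with the opposite sign. The sign was the same for 42 of 43, and the exception was Unc13a, at 0.02 ± 0.10. Clmn was at 0.467 ± 0.262 CPM in the Vhl-Hif1 knockouts and 214 ± 20.2 CPM in the Vhl-Hif2 knockouts (8.82 ± 0.30), beside 8.93 between the controls. Prkce differed by 3.86 ± 0.21, Arg2 by 3.48 ± 0.35, Tc2n by 3.61 ± 0.38, Epcam by 3.26 ± 0.18 and Dhrs7 by 1.55 ± 0.16. By group of neighbouring genes, the shared calls were 4 of 4 near Hif1a, 5 of 5 farther out on chromosome 12, 2 of 3 beside Epas1, 8 of 9 on chromosome 3, 4 of 5 and 3 of 3 on chromosome 7, and 10 of the 14 genes outside any group. The count of 36 was 20, 16 and 18 without Vhl-Hif1 control 1, 2 and 3 and 23 without Vhl-Hif2 control 3. In these fits 28, 18, 21 and 26 genes were called between the controls.

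**Figure D4:**
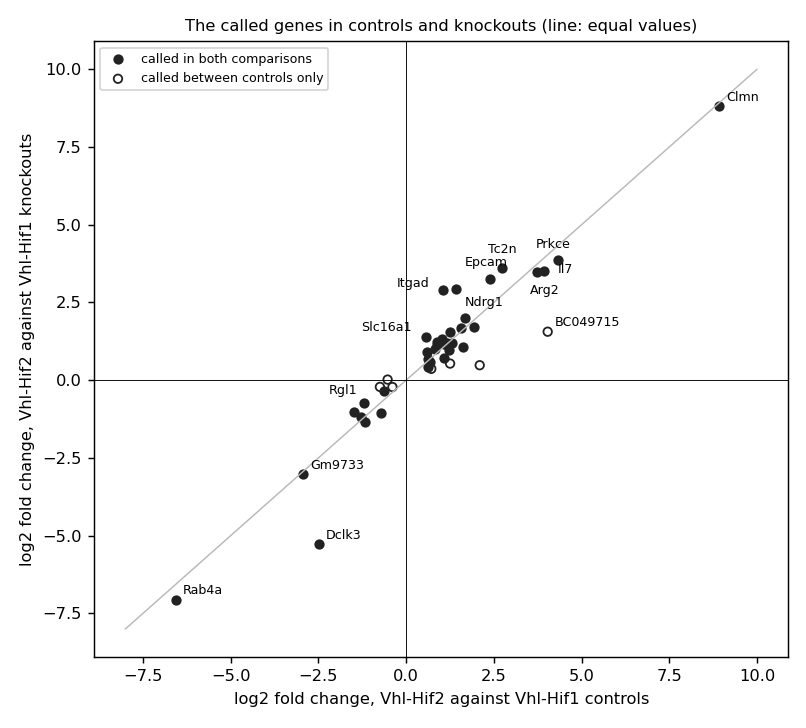
Log2 fold change of Vhl-Hif2 over Vhl-Hif1 libraries in controls (x axis) and in knockouts (y axis) for the 43 called genes; filled points were called in both comparisons and the line marks equal values. Clmn lies on the line at 8.93 and 8.82, while Dclk3, Itgad and Ndrg1 lie off it; fitted values of Rab4a, Il7 and BC049715 rest on few counts.

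The knockouts themselves moved a part of the 43 genes. Of these, 11 were called in Vhl-Hif1 knockouts against their controls, where 456 of all 12471 autosomal genes tested were called (3.66%). In Vhl-Hif2 knockouts against their controls 17 of the 43 were called, beside 1839 of all 12471 (14.7%). Of the 43 genes, 21 were called in neither. Clmn, Prkce, Arg2, Tc2n, Mpp5, Sipa1l1 and Efcab11 were among those not called in either. Fabp4 rose in both, from 41.3 ± 8.17 to 88.3 ± 6.70 CPM in the Vhl-Hif1 cross (1.10, edgeR adjusted p = 2.5e-04) and from 132 ± 36.3 to 355 ± 3.87 CPM in the Vhl-Hif2 cross (1.43, edgeR adjusted p = 4.7e-06). Apoe rose in both as well, from 96.6 ± 12.003 to 231 ± 26.4 CPM and from 34.3 ± 2.70 to 113 ± 21.6 CPM, so the Vhl-Hif2 knockouts stood near the level of the Vhl-Hif1 controls. Epcam fell from 66.1 ± 1.73 to 33.1 ± 8.30 CPM in the Vhl-Hif1 cross (-0.996, edgeR adjusted p = 0.0017) and was at 346 ± 79.7 and 318 ± 26.0 CPM in the Vhl-Hif2 cross. For 5 of the 43 genes the difference between the crosses itself differed between controls and knockouts by edgeR's test of the interaction: Itgad, Ndrg1, Slc16a1, Dclk3 and Rgl1. That test called 307 of all 12471 autosomal genes tested (2.46%). These comparisons share the control libraries with the comparison above, so the values are given side by side.

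The controls of the triple cross carry both floxed HIF alleles and gave a further reference level. They share their libraries with no group above, but they had the expression of male cells (Xist at most 0.362 CPM, Ddx3y at 47.3 to 107 CPM), so cross and sex cannot be told apart in comparisons with them. Against the Vhl-Hif1 controls 672 autosomal genes were called (5.39%) and against the Vhl-Hif2 controls 423 (3.39%). Of the 43 genes, 20 were nearer in log2 level to the Vhl-Hif1 controls and 23 nearer to the Vhl-Hif2 controls. The triple-cross controls were called against the Vhl-Hif1 controls alone for 17 of the 43 genes, against the Vhl-Hif2 controls alone for 16, against both for 4 and against neither for 6.

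Near Hif1a, the triple-cross controls were nearer to the Vhl-Hif1 controls, the other group labelled with a floxed Hif1a allele, for 4 of 4 called genes. That both groups carry this allele rests on the labels of the double crosses, beside the Hif1a levels of the knockouts given above. In the triple-cross controls Arg2 was at 1.94, 1.12 and 1.68 CPM, and Dhrs7 at 46.4, 56.0 and 49.7 CPM. Both were called against the Vhl-Hif2 controls (-4.30 and -1.09, edgeR adjusted p = 2.1e-06 and 0.0014) and not against the Vhl-Hif1 controls (-0.56 and 0.15, edgeR adjusted p = 0.36 and 0.60). Beside Epas1 the order was the reverse: the triple-cross controls were nearer to the Vhl-Hif2 controls, the other group labelled with a floxed Epas1 allele, for 3 of 3, which depends on the same labels. Prkce was at 31.2, 27.1 and 35.0 CPM in them and Mcfd2 at 52.3, 51.0 and 54.1 CPM, both overlapping the Vhl-Hif2 controls. Epcam, at 194, 202 and 240 CPM, lay between the groups and was called against both (1.68 over the Vhl-Hif1 controls, -0.71 against the Vhl-Hif2 controls, edgeR adjusted p = 2.4e-05 and 0.028). Groups away from any targeted gene were one-sided too. The first on chromosome 7 was nearer to the Vhl-Hif1 controls for 5 of 5, and that on chromosome 3 to the Vhl-Hif2 controls for 8 of 9. The part of DNA next to the floxed alleles was not tested.

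The far group on chromosome 12 was split. Clmn was at 0.329, 0.0832 and 0.496 CPM in the triple-cross controls, overlapping the Vhl-Hif1 controls, whereas Efcab11, Dglucy, Ccdc88c and Tc2n were nearer to the Vhl-Hif2 controls. Tc2n spread widely, at 42.1, 22.3 and 58.5 CPM, all between the 2 double-cross groups. On chromosome 3 the triple-cross controls were nearer to the Vhl-Hif2 controls for 8 of 9 genes, with Fabp4 at 129 ± 5.95 CPM, and the exception was Gyg at 117 ± 13.2 CPM. In the first group on chromosome 7 they were nearer to the Vhl-Hif1 controls for 5 of 5. In the other group there, Apoe (25.5 ± 8.47 CPM) and Apoc1 were nearer to the Vhl-Hif2 controls and C5ar2 (39.7 ± 3.96 CPM) to the Vhl-Hif1 controls. Rgl1, at 61.3 ± 4.04 CPM, was at the level of the Vhl-Hif2 controls, and Ndrg1, at 0.881 ± 0.0650 CPM, was below both groups.

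**Figure D5:**
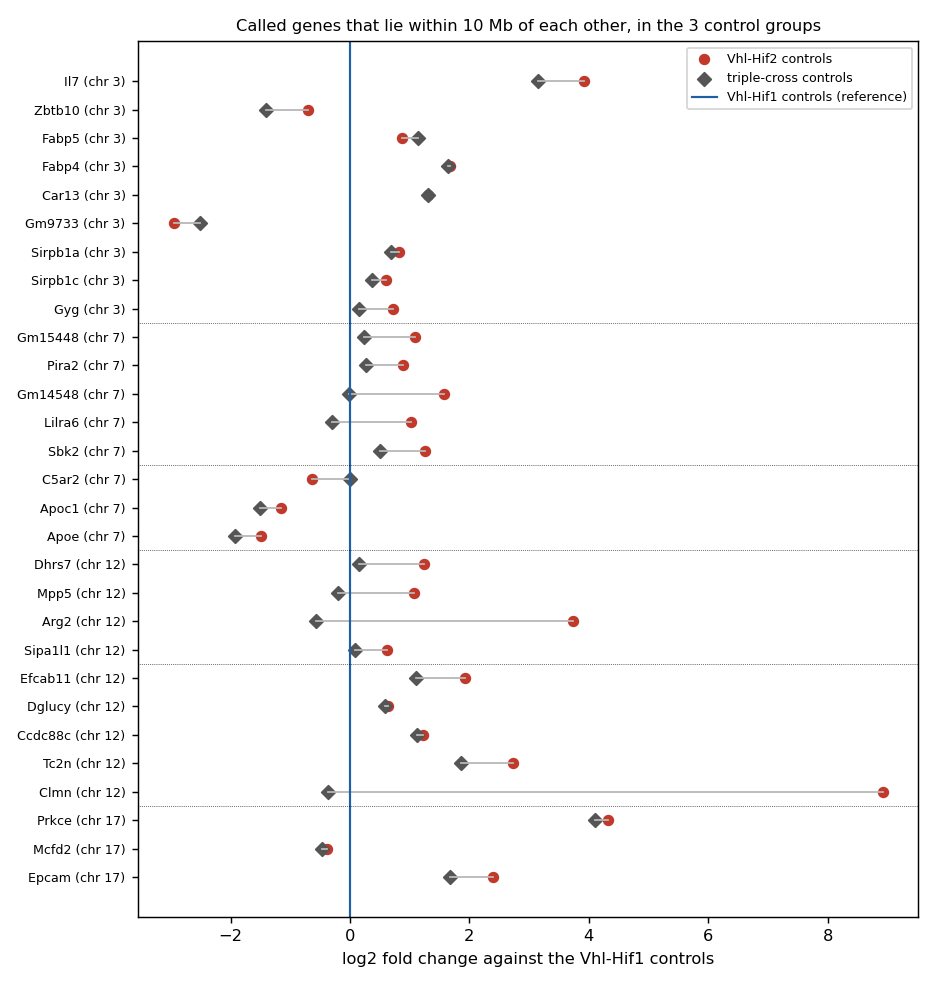
Log2 fold change against the Vhl-Hif1 controls (x axis) of the Vhl-Hif2 controls (red circles) and the triple-cross controls (grey diamonds) for the 29 called genes that fell into 6 groups of neighbours, separated by dotted lines. Arg2 and Clmn of the triple-cross controls lie at -0.56 and -0.36, beside the Vhl-Hif1 reference at 0, and Prkce at 4.10, beside the Vhl-Hif2 controls; fitted values of Il7 rest on few counts.

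Few members of the pathway and marker lists were called. Of 26 lists with 483 symbols, 21 had no called member by edgeR. Glycolysis, the pathway most tied to HIF-1 alpha, had 0 of 22 called (1 with an unadjusted p under 0.05, 0 by DESeq2), at a median log2 fold change of 0.03. Oxidative phosphorylation had 0 of 26 (0 and 0) at a median of 0.06, and cholesterol synthesis and uptake 0 of 21 (0 and 0) at -0.07. The medians were 0.24 for 30 type I interferon response genes, 0.32 for 14 MHC class II genes and 0.28 for 20 cytokine and chemokine genes. Over all autosomal genes the median was 0.003. No member of these lists was called by edgeR or DESeq2, and 5, 1 and 4 had an unadjusted p under 0.05. These were 16.7%, 7.14% and 20% of their lists, against 5.48% of all autosomal genes tested. The dendritic cell markers had a median of 0.33 over 12 tested genes. Of these, 1 had an unadjusted p under 0.05. Ccr7 was at 9.07, 7.22 and 9.14 CPM in the Vhl-Hif1 controls and at 18.4, 16.9 and 7.30 CPM in the Vhl-Hif2 controls. Fscn1 was at 9.62, 7.14 and 10.4 against 19.3, 17.5 and 7.06 CPM, so Vhl-Hif2 controls 1 and 2 were the high ones for both. Flt3 and Zbtb46 were also highest in these libraries. Other members did not follow: Irf8 was at 114, 116 and 111 against 111, 118 and 114 CPM, and Cd209a at 0.760, 0.264 and 1.08 against 0.664, 0.270 and 0.372 CPM. The MHC class II gene H2-Aa was at 74.4, 53.4 and 155 CPM against 80.2, 176 and 178 CPM, with Vhl-Hif1 control 3 and Vhl-Hif2 controls 2 and 3 high. The part of dendritic cells in the MHC class II levels was not tested.

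The pathway list with the highest median was that of the circadian clock, at 0.47 over 15 tested genes. None of its members was called by edgeR or DESeq2, and 3 were higher and 0 lower at an unadjusted p under 0.05: Per3, Nr1d1 and Nr1d2, which are named for that count. Per3, a period gene, was at 1.65, 1.81 and 1.85 CPM in the Vhl-Hif1 controls and at 5.26, 2.55 and 2.23 CPM in the Vhl-Hif2 controls (0.91 ± 0.36, edgeR adjusted p = 0.77). Nr1d2, which encodes the repressor REV-ERB beta, was at 26.2, 21.2 and 19.9 CPM against 42.7, 28.3 and 26.8 CPM (0.54 ± 0.22, edgeR adjusted p = 0.80). Vhl-Hif2 control 1 was the highest library for all 3 genes.

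Lipid and surfactant handling had 4 of 25 called, beside 0.345% of all autosomal genes tested. Fabp4 and Fabp5 were higher and Apoe and Apoc1 lower, all in the groups of neighbouring genes described above. The calls of Fabp5 and Apoc1 ended without single libraries.

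Of 34 other hypoxia-response genes 1, Ndrg1, was called, at a median log2 fold change of 0.05. At an unadjusted p under 0.05, 8 were higher and 1 lower, which is 26.5% of the list against 5.48% of all autosomal genes tested. DESeq2 called 4 (11.8%, against 0.682%). Other pathway lists also had an unadjusted share above 5.48%. Among them were oxidative stress and iron at 27.3%, MHC class I at 23.5%, cytokines and the circadian clock at 20% each, and proliferation at 16.7%. Glycolysis, at 4.55%, and oxidative phosphorylation and cholesterol synthesis, at 0%, were below it. Single libraries stood apart in the hypoxia-response genes. Ndufa4l2, a HIF-induced mitochondrial protein, was at 0, 0.176 and 0.116 CPM in the Vhl-Hif1 controls and at 5.26, 1.31 and 0.232 CPM in the Vhl-Hif2 controls (edgeR adjusted p = 0.078). Ak4, a mitochondrial adenylate kinase, was at 0.169, 0.132 and 0.193 CPM against 4.04, 1.12 and 0.279 CPM (edgeR adjusted p = 0.096). For both, Vhl-Hif2 control 1 was the highest and control 3 close to the Vhl-Hif1 controls. Egln3, one of the HIF prolyl hydroxylases and induced by HIF, was at 0.464, 0.617 and 32.5 CPM against 11.5, 2.47 and 0.465 CPM, so that Vhl-Hif1 control 3 and Vhl-Hif2 control 1 were the highest of their groups. Without both of these libraries 25 autosomal genes were called. Of the genes described above, Clmn, Prkce, Epcam, Arg2, Tc2n, Dhrs7, Fabp4, Apoe and Rgl1 were called there too.

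A list of 16 tested genes known to differ between laboratory mouse strains had 0 called by edgeR and by DESeq2 and 1 with an unadjusted p under 0.05. That gene was Wdfy1, at 50.3 CPM against 30.1 CPM (-0.74 ± 0.25, edgeR adjusted p = 0.58). Nnt, the mitochondrial transhydrogenase that is partly deleted in some C57BL/6J lines, was at 12.3, 27.0 and 23.6 CPM against 18.5, 40.1 and 30.7 CPM. These ranges overlapped, and the transcript was present in all 6 libraries (0.51 ± 0.30, edgeR adjusted p = 0.97). Gene counts cover exons outside a deleted part, so they do not show whether Nnt was intact. The table holds 2 identifiers of this name, and the one with the higher mean is given.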

How the data were processed

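PolyA RNA of alveolar macrophages, taken by lavage and enriched with CD11c beads, was sequenced from 100 ng of total RNA with a directional kit, per the labels' protocols. The authors deposited 1 table of expected counts per gene; the unit was taken from the values, of which 89.3% were whole. Per the submitters' processing notes FastQC, cutadapt and STAR were used with GRCm38; versions, the counting tool and its annotation and strand options were not given in the sources used here, so reads shared by overlapping or antisense genes may be split.

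Counts were rounded and filtered with filterByExpr on 6 groups, which left 12900 of 32789 genes. All 18 libraries (19230452 to 34015320 counts) were fitted with edgeR 4.0.16 (R 4.3.3, limma 3.58.1), TMM factors and 1 coefficient per group, with no covariates. SE is the log2 fold change over the square root of F and is approximate; errors leave out PCR, as no molecular identifiers are described. Positions came from GENCODE M21 (GRCm38), found for 12882 genes; the 18 others were not counted as autosomal. Named genes were Vhl, Hif1a and Epas1, the 12 highest and 12 lowest called log2 fold changes with a mean of at least 1 CPM and no overlap, called genes within 10 Mb of a targeted gene, called list members (at most 4 a list) and Nnt; predicted models were counted only. The members, lists and rules were chosen with earlier results of these data known. Alternatives were DESeq2 1.42.0, RLE factors, no filter, fits of fewer libraries, the replicate block, windows of 5 and 20 Mb, and leaving out libraries; the fit of the 12 double-cross libraries and leaving out triple-cross controls were chosen after seeing the data.

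Replicate numbers come from the titles. The correlations of deviations from group means were -0.02, 0.08 and -0.03 for same-numbered controls, under the limit of 0.1, so the numbers were not taken as pairs. No 2 libraries held identical values (correlations of 0.980 to 0.989 between libraries).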

Additional observations from a re-analysis of the deposited data

Results flagged for a closer look

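For 5 of the 43 genes, the difference between the crosses was not the same in controls and knockouts by edgeR's test of the interaction. That test called 307 of all 12471 autosomal genes tested (2.46%). Itgad, an integrin alpha subunit, was at 16.0 ± 0.723 and 33.3 ± 11.4 CPM in the Vhl-Hif1 and Vhl-Hif2 controls and at 28.4 ± 2.97 and 212 ± 15.3 CPM in the knockouts, so the log2 difference was larger by 1.84 ± 0.28 in the knockouts (edgeR adjusted p = 8.0e-04). Ndrg1 was at 2.34 ± 0.731 and 6.32 ± 1.71 CPM in the controls and at 6.50 ± 0.545 and 49.3 ± 6.07 CPM in the knockouts, a change of 1.501 ± 0.29 (edgeR adjusted p = 0.0065). Slc16a1, a lactate transporter, changed by 0.82 ± 0.15 (edgeR adjusted p = 0.0042), with 14.1 ± 0.358 and 21.03 ± 1.45 CPM in the controls and 11.6 ± 1.11 and 30.4 ± 0.913 CPM in the knockouts. Dclk3 was at 9.03 ± 0.369 and 1.58 ± 0.611 CPM in the controls and at 8.26 ± 3.82 and 0.207 ± 0.165 CPM in the knockouts, a change of -2.79 ± 0.62 (edgeR adjusted p = 0.020). Rgl1 had a smaller difference in the knockouts, by 0.45 ± 0.11 (edgeR adjusted p = 0.034), at 193 ± 9.48 and 116 ± 3.37 CPM. Leaving out single libraries ended the calls of Itgad and Slc16a1 between the controls (5 of the 6 libraries each). These differences also hold the difference between the knockouts. The test of the interaction used the control libraries by which the 43 genes were chosen. The 5 of 43 therefore cannot be set against the 2.46%.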

How the results depend on the processing

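The count of 43 was 43 with RLE factors and in the fit of the 12 double-cross libraries, 53 without a filter, 32 in the fit of the 6 control libraries, 29 at 2-fold or more, 85 with DESeq2 (57 higher, 28 lower) and 25 without both Vhl-Hif1 control 3 and Vhl-Hif2 control 1. Without each control library in turn it was 18 to 31. These lists were not all parts of the 43. The fit of the 6 control libraries called 24 of the 43 genes, and that without both libraries 20. Without each control library in turn 18 to 27 of the 43 were called. The Hif1a window held 7 genes with DESeq2, 2 without both libraries, 2 at 5 Mb and 2 to 4 without each library; the Epas1 window held 2 to 3. Control calls shared with the knockouts numbered 62 with DESeq2, 23 without both libraries and 16 to 28 without each library, and knockout calls 754 to 928. Without each library in turn the log2 fold change of Vhl ran from -0.00185 to 0.23 and that of Hif1a from -0.16 to 0.045; Vhl reversed without Vhl-Hif1 control 3 and Hif1a without Vhl-Hif2 control 2, and neither was called. Settings that left out libraries tested fewer samples; for DESeq2 and the other settings that moved a count the cause was not tested. With the replicate block 31 genes were called. Of the 43 genes, 14 were called under all 13 alternatives, and none changed sign. With 3 libraries a group, genes at a few counts, such as Il7, cannot be ranked by size.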
